A study of Mus musculus with 8 samples.

Results

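The genes described here, grouped under iron uptake, export and reduction, were measured as RNA in hepatic stellate cells, the retinoid-storing pericytes of the liver. The 9 genes, out of 19938 measured, include the transferrin receptor Tfrc, the divalent metal transporter Slc11a2 and the exporter Slc40a1 (ferroportin). The others are the metalloreductases Steap2, Steap3 and Steap4, the related Steap1, and the ferroxidases Heph (hephaestin) and Cp (ceruloplasmin). All 9 were chosen by gene symbol, with results of the same arrays already known. A probe set, the group of probes that the array reads as 1 value, was taken where the platform annotation gave it exactly 1 of these symbols. Where a gene had several, the probe set was selected on its mean level over the 8 arrays. Steap2 alone had a second probe set, so that 10 probe sets are described.

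RNA came from sorted stellate cells of male Balb/c mice, with 4 arrays in each of 2 groups. The reverted group was made from mice given CCl4 (carbon tetrachloride, a liver toxin) in 4 injections of 0.5 µl per g body weight, 2 per week, and then left for 45 days. The quiescent group was made from normal mice without CCl4. Both groups were sorted on retinoid autofluorescence after density centrifugation and lysed at once, so that cells which had lost their retinoid would not have been collected in either. The labels put all mice at 18 weeks in one place and the reverted mice at 16 weeks in another, and nothing says whether an array holds 1 mouse or a pool. The p-values therefore measure only the spread between these arrays, which may be technical.

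Cells take up most of their iron as transferrin bound to its receptor. In the endosome the iron is reduced by a STEAP protein and passes to the cytosol through the divalent metal transporter. Iron leaves the cell through ferroportin, and a multicopper ferroxidase, hephaestin at the membrane or ceruloplasmin in plasma, oxidises it so that transferrin can bind it again. Iron regulatory proteins stabilise the transferrin receptor mRNA and block translation of ferritin and ferroportin when iron is low, and hepcidin, a liver hormone, removes ferroportin from the surface. In the liver, hepatocytes hold most of the stored iron and secrete transferrin, ceruloplasmin and hepcidin, while macrophages recycle iron from red cells.

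The arrays were alike in overall level, with medians between 7.66 and 7.74 on the log2 scale of the deposited values. Stellate identity was checked on 15 markers, whose mean log2 level lay between 13.15 and 13.23 in reverted arrays and between 13.24 and 13.32 in quiescent arrays. The highest of them, the matrix proteins Ecm1 and Reln, averaged 14.37 and 14.32 in reverted cells, against 14.42 and 14.35 in quiescent cells, and the intermediate filament gene Gfap fell by 0.49 (adjusted p = 0.0182 in limma). Markers of hepatocytes were present too: the mean of 16 such markers ran from 8.61 to 9.17 in reverted arrays and from 7.94 to 8.98 in quiescent arrays, and 15 of them had a higher mean in the reverted group. The mean of 11 mesothelial and portal fibroblast markers lay between 7.96 and 8.18 in reverted arrays and between 7.77 and 7.83 in quiescent arrays, without overlap. Of these markers Wt1 rose by 1.39 (adjusted p = 0.00801 in limma) and Dpt by 1.69 (adjusted p = 0.0174), and 8 of the 11 had a lower reverted mean. Eln, the highest of the 11 markers in level, had a log2 change of -0.34 (adjusted p = 0.118 in limma). In such bulk samples fewer cells of a type and less RNA per cell cannot be told apart.

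Of the 9 genes, Steap2 rose in reverted cells, and the other 8 did not pass the test. A gene was called changed at an adjusted p under 0.05 in limma, adjusted by Benjamini-Hochberg over all 19938 genes, and 142 genes or 0.712% were called. The direction of the difference was up for 8 of the 9 genes and down for Steap4, where 46.41% of all genes had a higher reverted mean. The median log2 change (reverted minus quiescent) was 0.17, against -0.01 over all genes. In 2 of the 9, Steap2 and Heph, each reverted array lay above each quiescent array, a separation found in 4.64% of all genes. The genes were put together with these results in view, so these shares describe them and support nothing further. The plots by array and of the changes show all 10 probe sets.

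**Figure D1:**
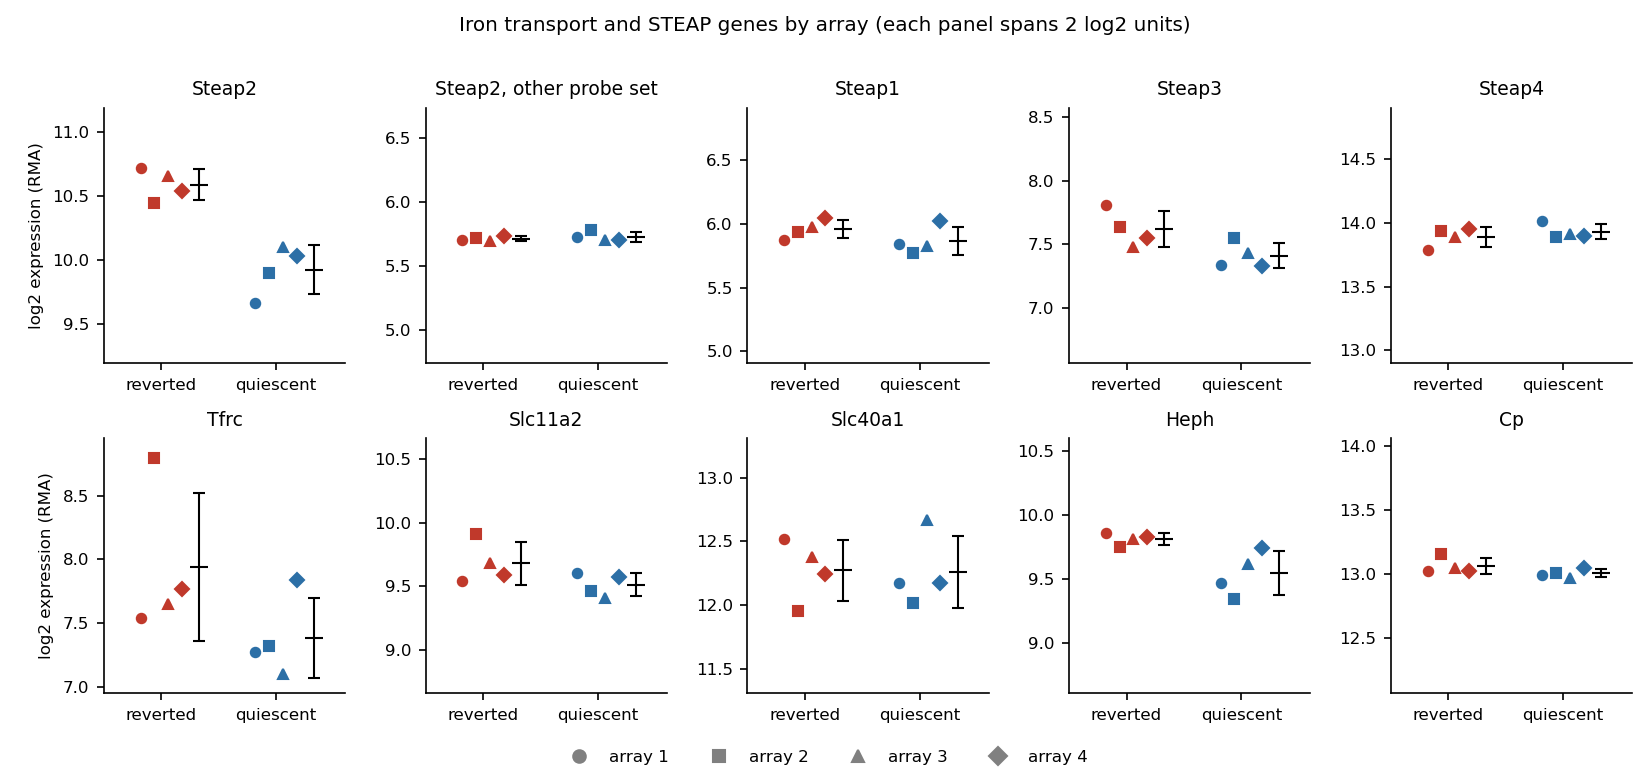
Log2 expression of each probe set (y axis; every panel spans the same number of log2 units) in the 4 reverted arrays (red) and the 4 quiescent arrays (blue), with the mean and SD of each group in black. Steap2 and Heph are separated between the groups, Tfrc has 1 reverted array at 8.80 far above the other 3, and Steap4 and Cp vary little.

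**Figure D2:**
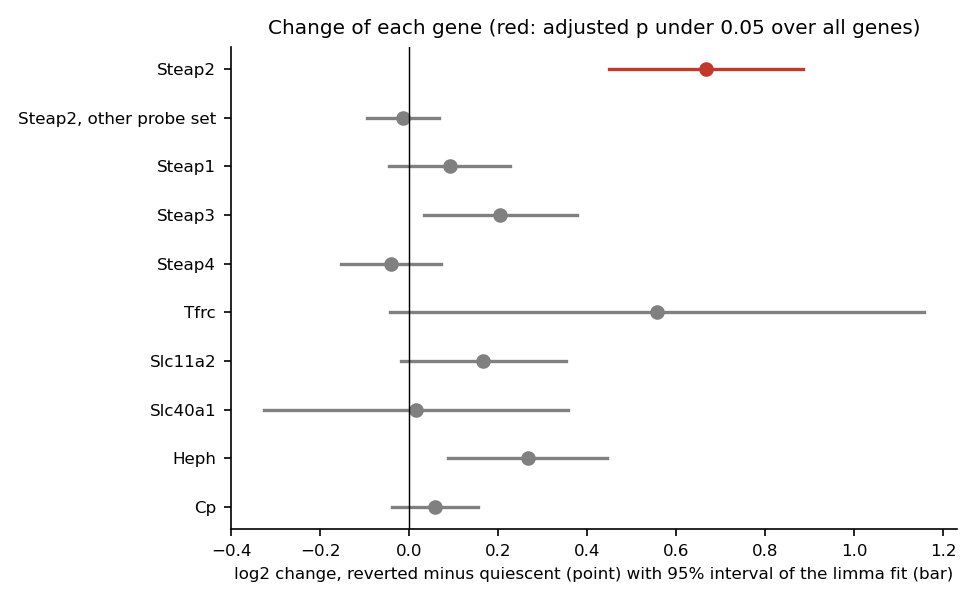
Log2 change, reverted minus quiescent (x axis), of each probe set, with the 95% interval of the limma fit as a bar. Steap2, in red, is the called gene at 0.67, the intervals of Steap3 and Heph lie above 0 without a call over all genes, and that of Tfrc is the widest.

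Steap2, Steap3 and Steap4 are membrane metalloreductases that reduce iron and copper. Steap3 is the main ferrireductase of the erythroid endosome. Steap2 had log2 values of 10.72, 10.44, 10.66 and 10.54 in reverted arrays 1 to 4, against 9.66, 9.90, 10.10 and 10.03 in quiescent arrays 1 to 4. The lowest reverted array stood at 10.44 and the highest quiescent array at 10.10, so the groups did not overlap. The means were 10.59 ± 0.12 in reverted and 9.92 ± 0.19 in quiescent cells (SD, n = 4 each), a log2 change of 0.67 (SE 0.10, adjusted p = 0.0188 in limma), or 1.59-fold with a 95% interval from 1.36 to 1.85.

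The call of Steap2 depended on single arrays. Its adjusted p in limma was 0.0536 without quiescent array 2, 0.0776 without reverted array 3 and 0.0672 without reverted array 4, with log2 changes of 0.66, 0.64 and 0.68. The other 5 of the 8 fits that each leave out an array kept the call. With the mean of the hepatocyte markers as a covariate the change was 0.60 and the adjusted p 0.0863, and with that of the macrophage markers the change was 0.75 and the adjusted p 0.0266. With the replicate number as a block the adjusted p was 0.0749. In all, 14 of 19 alternatives kept the call, and the adjusted p ran from 0.00819 to 0.0863. The mean of the 11 mesothelial and portal fibroblast markers was higher in reverted arrays, with 3 of them higher and 8 lower. Whether this has a part in the Steap2 rise was not tested.

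**Figure D3:**
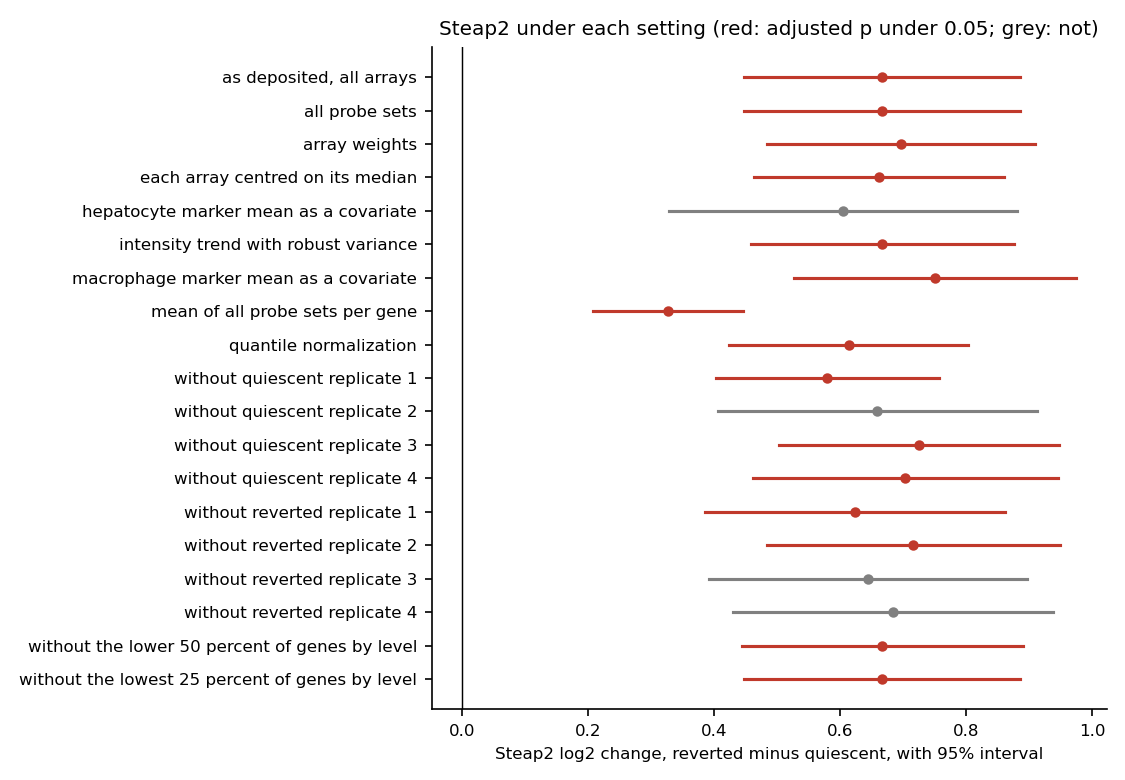
Log2 change of Steap2, reverted minus quiescent (x axis), with its 95% interval, as deposited and under 18 alternative settings (rows), in red where the adjusted p was under 0.05. The change is positive in every row shown, it is lowest at 0.33 where the mean of both probe sets is used, and 4 rows in grey miss the call. The fit with the replicate number as a block, which also missed it, is not drawn.

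The values above are of probe set 10528008. The second Steap2 probe set, 10519484, which the annotation ties to 1 accession against 13 for the first, gave a different picture. It read 5.71, 5.72, 5.70 and 5.74 in reverted arrays 1 to 4, against 5.73, 5.78, 5.70 and 5.70 in quiescent arrays 1 to 4. These values overlap and lie in the dim part of the scale. Its log2 change was -0.01 with a 95% interval from -0.09 to 0.07 (adjusted p = 0.866 in limma over all probe sets), and the mean of both probe sets changed by 0.33 (adjusted p = 0.0289).

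Steap1, which RefSeq places next to Steap2 on the same chromosome, read 5.88, 5.93, 5.97 and 6.05 in reverted arrays 1 to 4, against 5.84, 5.77, 5.83 and 6.02 in quiescent arrays 1 to 4. The groups overlapped, and quiescent array 4 lay above 3 of the 4 reverted arrays. On the log2 scale the difference was 0.09, with a 95% interval from -0.05 to 0.23 (adjusted p = 0.472 in limma), at a level percentile of 12.7, the place of its mean among all genes on the array's scale. The difference was 0.17 with the hepatocyte covariate, 0.14 without quiescent array 4 and 0.0596 without quiescent array 2. Such a percentile says nothing of transcript amounts between genes.

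Steap3 read 7.80, 7.64, 7.48 and 7.55 in reverted arrays 1 to 4, against 7.34, 7.55, 7.43 and 7.33 in quiescent arrays 1 to 4. Of the reverted arrays, 3 lay above the highest quiescent array, and reverted array 3 did not, although reverted array 4 and quiescent array 2 were both at 7.55 to 2 decimals. The difference came to 0.20 (SE 0.08, 95% interval 0.03 to 0.38), with an unadjusted p of 0.0247 that came to an adjusted p of 0.248 over all genes in limma. With the hepatocyte covariate the difference was 0.11 (adjusted p = 0.477).

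Steap4, a plasma membrane metalloreductase that inflammatory signals induce in several tissues, read 13.78, 13.93, 13.89 and 13.95 in reverted arrays 1 to 4, against 14.02, 13.89, 13.91 and 13.90 in quiescent arrays 1 to 4. It was the one gene of the 9 with a lower reverted mean, and its groups overlapped. A log2 change of -0.04 was found, with a 95% interval from -0.15 to 0.07 (adjusted p = 0.699 in limma). It was -0.0020 with the hepatocyte covariate, -0.0115 without quiescent array 1 and -0.0057 without reverted array 1. Its probe set lies at level percentile 99.8.

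The sequences before the starts of Steap2, Steap1 and Steap4, which share chromosome 5, are shown because these related genes differed in their values, with a call for Steap2 alone. They come from RefSeq on the build GRCm38.p6, run 5′ to 3′ on the strand of the gene, and hold up to 250 bases before the start. For Steap2 the outermost of its 3 listed starts was used, and 81 bases that fall within the annotated extent of the gene were left out. Capitals mark CCAAT or TATAAA or GGGCGG on either strand, and both matches of Steap2 and that of Steap4 are on the opposite strand.
Steap2 (chr5:5694650-5694818, minus strand): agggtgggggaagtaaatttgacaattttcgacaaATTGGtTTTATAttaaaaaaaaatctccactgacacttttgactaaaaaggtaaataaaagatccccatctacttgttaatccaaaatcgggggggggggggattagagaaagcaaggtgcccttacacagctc
Steap1 (chr5:5749318-5749567, minus strand): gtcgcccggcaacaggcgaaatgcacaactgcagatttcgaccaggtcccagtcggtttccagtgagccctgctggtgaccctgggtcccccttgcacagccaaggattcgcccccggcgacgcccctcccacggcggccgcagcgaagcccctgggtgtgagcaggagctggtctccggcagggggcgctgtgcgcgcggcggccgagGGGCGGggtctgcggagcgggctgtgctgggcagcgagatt
Steap4 (chr5:7960222-7960471, plus strand): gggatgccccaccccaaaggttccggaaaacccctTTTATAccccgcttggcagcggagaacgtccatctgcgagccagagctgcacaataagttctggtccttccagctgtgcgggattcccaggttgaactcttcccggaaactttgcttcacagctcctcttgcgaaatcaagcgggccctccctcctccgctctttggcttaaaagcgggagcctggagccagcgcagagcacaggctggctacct
The whole windows of 250 bases hold 47.2% G and C for the outermost start of Steap2, 70.8% for Steap1 and 58.4% for Steap4. The median is 52.4% over the 32851 promoter windows of the table. Windows 2 and 3 of Steap2, at its other listed starts, hold 56.4% and 74.4%. Neither has CCAAT or TATAAA, and window 3 holds GGGCGG. How Steap2 compares with Steap1 in these letters therefore depends on the start chosen. The stretch of Steap2 printed here, 169 bases, holds 39.1%. CCAAT on either strand occurs in 33.8% of all windows of 250 bases, GGGCGG in 32.7% and TATAAA in 12.4%. Of the 9 genes 6 have an entry in the table, with 13 windows in all. Of these, 4 pairs overlap. CCAAT was in 4 of the 13, GGGCGG in 5 and TATAAA in 3. The hypoxia response element core ACGTG was in 2 of the 13 windows, 1 of Tfrc and 1 of Steap2, against 16.6% of all windows. The antioxidant response element core TGACNNNGC was in 1, of Steap2 and outside the stretch printed, against 10.2% of all windows. Such matches describe letters and do not show that a factor binds there.

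Of the uptake genes, Tfrc had the larger difference, the second largest of the 9 genes after Steap2, and the largest spread within both groups. Tfrc read 7.54, 8.80, 7.65 and 7.77 in reverted arrays 1 to 4, against 7.27, 7.32, 7.10 and 7.84 in quiescent arrays 1 to 4. Reverted array 2 stood alone at 8.80, and quiescent array 4 at 7.84 lay above the other 3 reverted arrays, so the groups overlapped. The means were 7.94 ± 0.58 in reverted and 7.38 ± 0.32 in quiescent cells (SD, n = 4 each), with a log2 change of 0.56 and a 95% interval from -0.04 to 1.16 (adjusted p = 0.342 in limma). Without reverted array 2 the log2 change was 0.27 (95% interval -0.09 to 0.63, adjusted p = 0.471). With the hepatocyte covariate it was 0.94 (95% interval 0.34 to 1.54, adjusted p = 0.133). The interval reaches a 2.23-fold rise, and over all alternatives the adjusted p ran from 0.133 to 0.556. The receptor is also abundant in erythroid precursors, for which 4 markers were measured; their mean lay between 6.78 and 6.81 in reverted arrays, with 6.80 in array 2, against 6.81 to 6.99 in quiescent arrays, and their part in the Tfrc value was not tested.

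Slc11a2, which carries iron out of the endosome, read 9.54, 9.91, 9.69 and 9.59 in reverted arrays 1 to 4, against 9.60, 9.47, 9.41 and 9.58 in quiescent arrays 1 to 4. Reverted arrays 2 and 3 lay above every quiescent array, and the other 2 lay among them. The mean difference of 0.17 had a 95% interval from -0.02 to 0.35 (adjusted p = 0.355 in limma). It was 0.089 without reverted array 2, 0.10 after quantile normalization and 0.29 with the hepatocyte covariate, with adjusted p between 0.134 and 0.635 over all alternatives. As for Tfrc, the highest value of the reverted group was that of array 2.

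Slc40a1, the known iron exporter of animal cells, read 12.52, 11.95, 12.38 and 12.24 in reverted arrays 1 to 4, against 12.18, 12.01, 12.66 and 12.17 in quiescent arrays 1 to 4. The groups overlapped almost wholly, with the highest value in quiescent array 3 and the lowest in reverted array 2. The log2 change was 0.02 with a 95% interval from -0.33 to 0.36 (adjusted p = 0.969 in limma), and its sign turned with 5 of the 8 arrays left out, so no direction is given. Macrophages also express Slc40a1. The mean of 13 macrophage markers lay between 6.84 and 6.94 in reverted arrays and between 6.80 and 6.90 in quiescent arrays. Among these markers 5 had a higher and 8 a lower reverted mean.

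Of the ferroxidases, Heph read 9.86, 9.75, 9.81 and 9.83 in reverted arrays 1 to 4, against 9.47, 9.35, 9.62 and 9.75 in quiescent arrays 1 to 4. The groups did not overlap, though the lowest reverted and the highest quiescent array were both at 9.75 to 2 decimals. Reverted arrays were close together (9.81 ± 0.05) and quiescent arrays less so (9.55 ± 0.17; SD, n = 4 each). The log2 change was 0.27 (SE 0.08, 95% interval 0.09 to 0.44), with an unadjusted p of 0.00798 that came to an adjusted p of 0.169 over all genes in limma. Without quiescent array 4 the change was 0.33 and the adjusted p 0.0572, and over all alternatives the adjusted p ran from 0.0572 to 0.354.

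Cp read 13.02, 13.16, 13.04 and 13.02 in reverted arrays 1 to 4, against 12.99, 13.01, 12.97 and 13.05 in quiescent arrays 1 to 4. The groups overlapped, and reverted array 2 was set off above the rest. The difference of the means was 0.06 on the log2 scale, with a 95% interval from -0.04 to 0.15 (adjusted p = 0.518 in limma) and level percentile 98.7. Without reverted array 2 the change was 0.0258, and with the hepatocyte covariate 0.0949, with adjusted p between 0.327 and 0.791 over all alternatives. Hepatocytes secrete Cp, and their part in its level was not tested. Alb, the albumin gene, averaged 12.41 in reverted and 11.86 in quiescent cells, with overlapping arrays.

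The order of the arrays within a group differed between the 9 genes. Reverted array 2 was the highest of its group for Tfrc, Slc11a2 and Cp and the lowest for Slc40a1, Steap2 and Heph. Reverted array 1 was the highest for Slc40a1, Steap2, Steap3 and Heph and the lowest for the other 5. Quiescent array 4 was the highest of its group for Tfrc, Steap1, Heph and Cp, the lowest for Steap3, and otherwise in between. With 4 arrays per group, no correlation between the genes was computed.

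The marker means by array are shown in the plot of cell types. The stellate mean was lower in every reverted array than in every quiescent array. The mesothelial and portal fibroblast mean was higher in every reverted array than in every quiescent array, although 8 of its 11 markers had a lower reverted mean. Erythroid means were lower in the reverted group, and the groups met at 6.81. Hepatocyte and sinusoidal endothelial means overlapped but were higher on average by 0.46 and 0.21 in the reverted group. The macrophage, lymphocyte and cholangiocyte means differed by 0.05, -0.02 and -0.05 (reverted minus quiescent). Among the 13 macrophage markers 5 had a higher and 8 a lower reverted mean. The highest in level, Cd68 (level percentile 77.7), had a log2 change of 0.38 (adjusted p = 0.341 in limma). C1qb, the next at level percentile 41.2, changed by 0.07. The largest change was that of Lyz2, at 0.59 (adjusted p = 0.129 in limma).

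**Figure D4:**
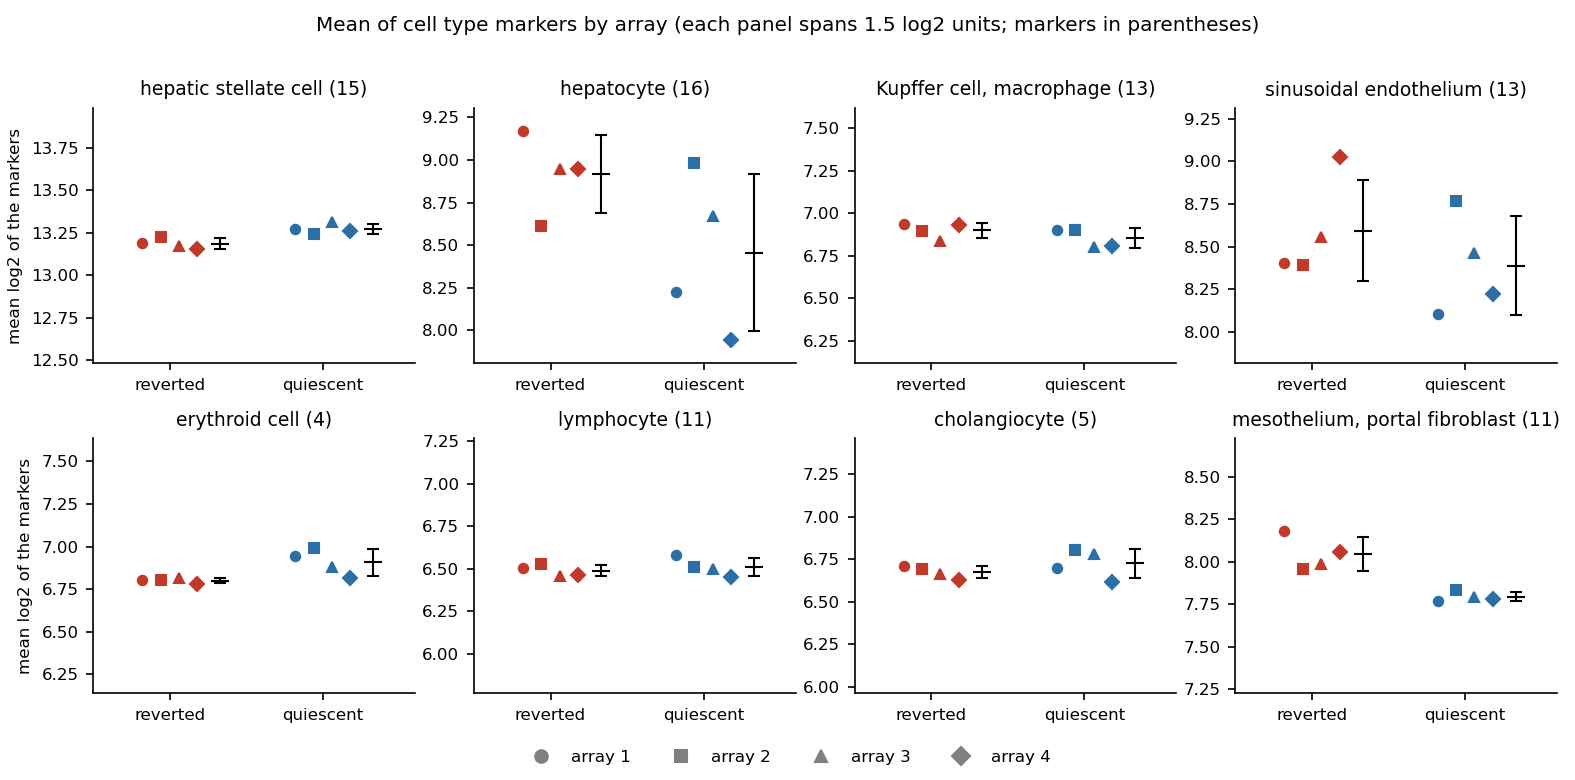
Mean log2 level of the markers of 8 cell types (panels, with the number of markers; every panel spans the same number of log2 units) in the 4 reverted arrays (red) and the 4 quiescent arrays (blue), with mean and SD in black. Hepatocyte means spread most in quiescent arrays, from 7.94 to 8.98, and sinusoidal endothelial means in reverted arrays, from 8.39 to 9.03. The macrophage, lymphocyte and cholangiocyte means overlap.

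Around these genes, 103 further genes of iron and copper handling in 7 lists gave 2 rises, 1 fall and 100 without a call, with a median log2 change of 0.01. Over all genes, 0.712% were called. The hepcidin axis held 21 of them, of which 1 rose and 0 fell, with a median of -0.05. Bmp6, the ligand through which liver endothelium drives hepcidin in hepatocytes, read 9.59, 9.49, 9.61 and 9.57 in reverted arrays 1 to 4, against 8.47, 8.87, 8.62 and 8.64 in quiescent arrays 1 to 4. These groups lay far apart. The gene rose by 0.92 (SE 0.08, adjusted p = 0.00171 in limma) and was called under all 19 alternatives, with adjusted p between 0.000502 and 0.0184. No alternative used the sinusoidal endothelial markers. Among these, 11 of 13 had a higher reverted mean and 2 a lower one, where 46.41% of all genes had a higher one. The highest in level, Clec4g, had a log2 change of 0.50 (adjusted p = 0.0630 in limma). Egfl7, the next in level, had one of -0.22 (adjusted p = 0.7225 in limma). The part of endothelial cells in the Bmp6 value was not tested. Id1, a target gene of BMP signalling, read 9.67, 9.68, 9.74 and 9.47 in reverted arrays 1 to 4, against 10.15, 10.46, 9.84 and 10.57 in quiescent arrays 1 to 4. Although the groups did not overlap, the log2 change of -0.61 (SE 0.14) had an adjusted p of 0.105 in limma, 0.0298 without quiescent array 3, and 0.265 at most.

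Of 22 other carriers and uptake routes 1 rose, 1 fell and 20 did not pass, with a median of -0.03. Trf, plasma transferrin, read 12.27, 12.22, 12.22 and 12.31 in reverted arrays 1 to 4, against 12.48, 12.64, 12.51 and 12.48 in quiescent arrays 1 to 4. It fell by 0.27 on the log2 scale (SE 0.05, adjusted p = 0.0400 in limma), with no overlap, but kept its call only without quiescent array 4 when each array was left out in turn, and the highest adjusted p was 0.144, without reverted array 3. Hp, haptoglobin, which binds free haemoglobin, read 8.45, 8.22, 8.23 and 8.48 in reverted arrays 1 to 4, against 7.42, 7.99, 7.37 and 7.39 in quiescent arrays 1 to 4. It rose by 0.80 (SE 0.14, adjusted p = 0.0373 in limma), kept its call only without quiescent array 2 when each array was left out in turn, and reached 0.130 without reverted array 4. Both are hepatocyte products as well. Adjusted for hepatocyte markers, the change of Trf was -0.33 (adjusted p = 0.0458) and that of Hp was 0.59 (adjusted p = 0.101).

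Iron storage, sensing, heme, mitochondrial iron and copper genes gave 0 calls in limma. In the storage list 6 of 7 genes had a lower reverted mean, with a median of -0.04, where 46.41% of all genes had a higher one. Hspb1, a small heat shock protein that limits iron uptake in cultured cells, had the lowest p there at a log2 change of -0.40 (adjusted p = 0.366), with 0.0372 without reverted array 3 and up to 0.592 otherwise, followed by the mitochondrial ferritin Ftmt (-0.10, adjusted p = 0.420). The ferritin subunits Fth1 and Ftl1, named here after their values were seen, gave differences of -0.03 (95% interval -0.13 to 0.06) and -0.04 (-0.13 to 0.06). Among 8 sensing genes the median was 0.03. Ireb2, the iron regulatory protein 2, stood at 0.12 (adjusted p = 0.320) and Epas1, the hypoxia-inducible factor 2 alpha, at -0.09 (adjusted p = 0.412).

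The 17 heme genes had a median of 0.04, with the heme and drug exporter Abcg2 at 0.21 (adjusted p = 0.230) and the constitutive heme oxygenase Hmox2 at -0.10 (adjusted p = 0.264). In the mitochondrial list 12 of 16 genes were higher, against 46.41% of all genes, with a median of 0.08. The iron-sulfur cluster genes Bola3 (0.16, adjusted p = 0.227) and Lyrm4 (0.17, adjusted p = 0.278) had its lowest p, while the mitochondrial iron importer Slc25a37, named after its value was seen, had its largest difference (0.33, adjusted p = 0.284), and Lyrm4 passed without quiescent array 3 (0.0492) and reached at most 0.513. Of 12 copper genes 11 had a higher reverted mean, against the same 46.41% of all genes, with a median of 0.08. The lowest p in limma was that of the superoxide dismutase copper chaperone Ccs (0.23, adjusted p = 0.226), followed by the copper importer Slc31a1 (0.16, adjusted p = 0.263). The mean of the copper list was 9.93 in the lowest reverted array and 9.91 in the highest quiescent array. The plot of the lists shows these differences beside those of the 9 genes.

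**Figure D5:**
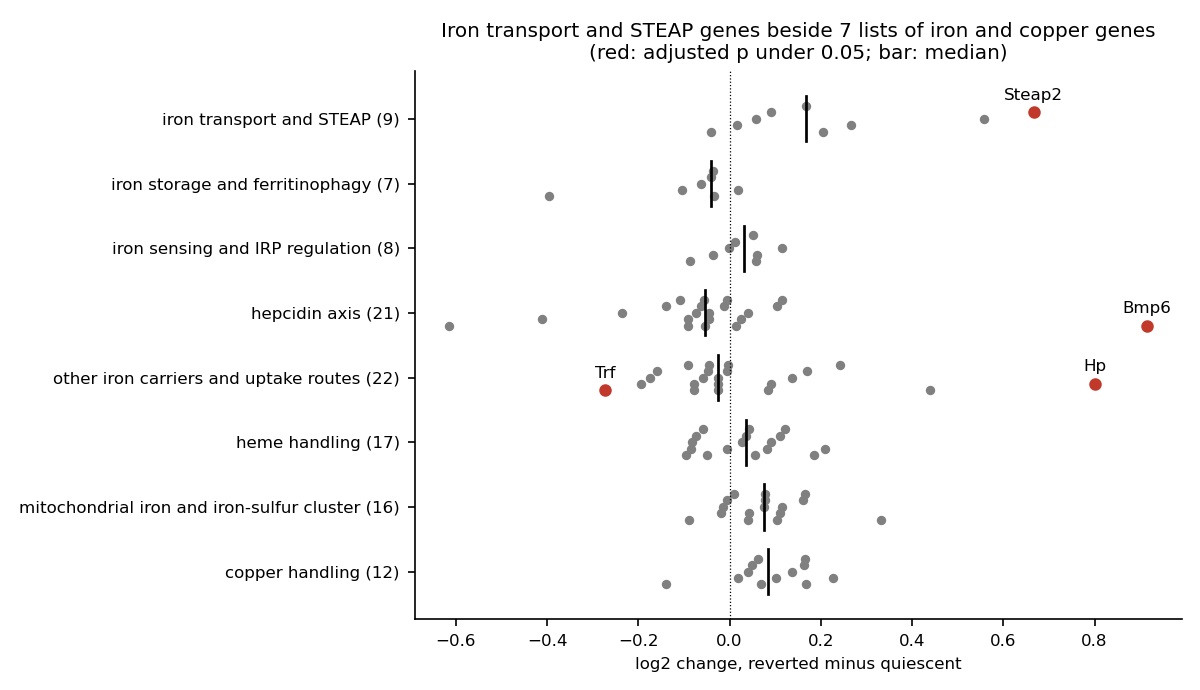
Log2 change, reverted minus quiescent (x axis), of each gene (points) in the 9 iron transport and STEAP genes and in 7 lists of iron and copper genes (rows, with the number measured), red and named where the adjusted p was under 0.05 and with the median as a black bar. The named genes are Steap2 (0.67), Bmp6 (0.92), Hp (0.80) and Trf (-0.27), and most others lie near 0.

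The genes whose profile over the 8 arrays was most like that of Steap2 were Frmd4b, Nufip1 and Ccdc3. After each gene was centred on its own mean, the root mean square distance from Steap2 was 0.08 for Frmd4b, 0.10 for Nufip1 and 0.10 for Ccdc3 on the log2 scale, against a median of 0.37 over all genes. Frmd4b, the closest, read 8.87, 8.90, 8.96 and 8.90 in reverted arrays 1 to 4, against 7.92, 8.15, 8.35 and 8.33 in quiescent arrays 1 to 4. All 3 were picked as the nearest to Steap2 on these same 8 arrays. Their low value in quiescent array 1 and high values in all reverted arrays follow from that choice.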

How the data were processed

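Gene expression was measured in 8 preparations of sorted stellate cells, from 150 ng RNA each, on a whole-transcript array. The authors deposited log2 values from RMA, per the submitters' processing notes, a method that as usually run corrects background, quantile-normalizes arrays and summarises probes. For its settings and the genome build, nothing is given in the sources used here. Values were present for 35556 probe sets, and 0 columns lack a sample. The platform annotation lists 23410 of them, 21789 with 1 gene symbol and 1621 with several (not used), and the other 12146 are unnamed here. RefSeq (GRCm38.p6) was used for names, neighbours and promoter windows. With the highest mean probe set per gene, 19938 genes were fitted with limma 3.58.1 in R 4.3.3 (lmFit and eBayes, 2-sided, no covariate, no filter on dim genes), after tests on simulated data. Tables used Python 3.11.15 and pandas 2.3.3 and plots matplotlib 3.10.9. The genes and lists were chosen with earlier results of these data known. Beside the 9 genes, the text names per pathway list each called gene and the 2 with the smallest p. For likeness it names the 3 nearest genes. Of the cell type lists it names the 2 highest stellate markers, the 2 highest mesothelial and portal fibroblast markers, and the highest hepatocyte marker. The 2 highest macrophage and the 2 highest sinusoidal endothelial markers are named too. Gfap, Wt1, Lyz2, Fth1, Ftl1 and Slc25a37 were named after their values were seen. Alternatives were array weights, median centring, quantile normalization, filters on dim genes, an intensity trend, all or averaged probe sets, marker means as covariates, the replicate block and leaving out each array. The number of arrays limits the precision. Same-numbered arrays of the groups were compared for pairing.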

Additional observations from a re-analysis of the deposited data

Results flagged for a closer look

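Cp in reverted array 2, at 13.16, lay apart from the other reverted arrays, which ran from 13.02 to 13.04. Hspb1 in quiescent array 1 stood at 10.81, against 10.63 to 10.64 in the other quiescent arrays. Hp in quiescent array 2 stood at 7.99, against 7.37 to 7.42 in the others, and its hepatocyte marker mean of 8.98 was also the highest of the quiescent group. Lyrm4 in quiescent array 3 stood at 10.15, against 9.84 to 9.88. In each, the gap to the nearest array divided by the range of the group exceeded Dixon's critical value. Of 64 groups examined 4 did so, and chance gives about 1 in 20. The Tfrc value of reverted array 2 fell just short, with a ratio of 0.820.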

How the results depend on the processing

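The count of 142 called genes moved to 306 with array weights, 219 after quantile normalization, 90 and 79 with the macrophage and hepatocyte marker means as covariates, and 63 with the replicate number as a block. With each array left out in turn it ran from 54 to 247: 54 without reverted array 4, 59 without reverted array 3, 73 without quiescent array 1 and 247 without quiescent array 4. Of the 9 genes, 0 were called with the hepatocyte covariate or the replicate block (Steap2 adjusted p 0.0863 and 0.0749), and 0 to 1 with an array left out. Same-numbered arrays did not vary together (correlations of deviations -0.15, -0.03, -0.02 and 0.08), so the numbers were not read as pairs. Between arrays of different number the correlations ran from -0.24 (reverted array 4, quiescent array 3) to 0.33 (reverted array 1, quiescent array 3). What lies behind these values was not tested. Slc40a1 turned to -0.09 with the hepatocyte covariate and ran from -0.0662 to 0.151 with an array left out. Among the other comparisons of these 9 genes with an alternative, 156 kept direction and side of the threshold and 5 lost the call, all of Steap2, with the cause not tested. For the named pathway genes 242 comparisons kept both, 19 lost a call and 3 gained one. Filters on dim genes left Steap1 out at 25%, and Tfrc and Steap3 too at 50%. Background signal was not used here, so changes of dim genes may be understated.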
